A study of Mus musculus with 45 samples.

Results

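The first day after mouse embryonic stem cells (ESCs) left serum and LIF was examined in 4 of the 45 RNA-seq libraries of the series: the single library of ESCs kept in serum plus LIF (SL d0), and the 3 libraries taken 1 day later (d1) from the courses named EB, EpiSC and Neural. These 4 were chosen by their labels and not by any measured value, though earlier results of these data were known. All were male E14tg2a ESCs of the 129/Ola background, labelled wild type and grown on gelatin in medium with fetal bovine serum and the cytokine LIF. At day 0 the cells were replated in 3 ways. For EBs (embryoid bodies) they were put in suspension in low-attachment dishes, in medium that still contained serum but no LIF. For EpiSC they were plated as an adherent monolayer in serum-free N2B27 with Fgf2 and Activin A. For Neural they were plated as a monolayer in N2B27 alone. LIF was thus withdrawn in all 3 courses, but serum in only 2 of them, and suspension was used only where serum stayed. The d0 group is 1 library, so it has no replicate of its own, and the 3 d1 libraries are 3 treatments of 1 line and not repeats of 1 treatment. The p-values below therefore measure each difference against the spread between the 3 courses, with the d0 library assumed to vary like them.

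As background, LIF acts through the receptor pair Lifr and Il6st (gp130) on the kinase Jak and the transcription factor Stat3, which switches on its own feedback inhibitor Socs3 and several naive pluripotency factors. Serum supplies lipids, BMP-like activity that induces Id genes, and agents that act on actin and on the immediate-early genes through SRF. ESCs that leave the naive state pass through a formative, early post-implantation epiblast-like state before they take on a germ layer fate.

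The 4 libraries held 16671426 to 18229564 counts assigned to 35372 genes, at which 3 reads correspond to 0.1646 to 0.1799 CPM (counts per 1000000 counts of the library). Levels below are CPM scaled by TMM, a normalisation for composition, over all 45 libraries, and compare 1 gene between libraries, not genes with each other. Every pair of the 4 libraries differed by far more than counting noise (chi-square per degree of freedom 17.9 to 80.2 over genes, 6 pairs), so none was a copy of another. Mitochondrial messengers took 2.04% to 2.78% and small structural RNAs 5.42% to 7.94% of the counts. The label ESC was borne out by Pou5f1 (Oct4), at 688 CPM at d0 and 594 to 641 CPM at d1. The d0 culture also held transcripts of extraembryonic endoderm, the 28 genes of that list summing to 3328 CPM, against 952 to 1155 CPM in the 3 libraries of ESCs kept in 2iL (2 kinase inhibitors plus LIF). In bulk RNA, a change in the share of such cells and a change of RNA per cell cannot be told apart.

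Of 14901 genes that passed the filter on low counts, 2838 (19.0%) differed between SL d1 and SL d0 at an adjusted p below 0.05 (edgeR quasi-likelihood test, Benjamini-Hochberg adjustment). Higher at d1 were 1275 genes (8.56%) and lower 1563 (10.5%). Falls were the deeper: the median size was 1.15 on the log2 scale among the genes that fell and 0.78 among those that rose, and 942 falls but 442 rises passed 2-fold. The number of calls depended on which course was in the fit. Nearly every call of the full fit held without the EB library, so holding there says little about a single gene or list. Without the EB library 3588 genes were called higher and 3754 lower, without the EpiSC library 115 and 195, and without the Neural library 483 and 570. The EpiSC and Neural libraries lay close together (median absolute log2 difference 0.14 over the tested genes) and the EB library farther from both (0.21 and 0.22), while each lay 0.41 to 0.44 from d0. Over all tested genes, called or not, 5708 were higher and 5918 lower than d0 in all 3 courses (78.0% together). The 3 comparisons share the single d0 library. Counts below of list genes with 1 direction in all 3 courses are to be read beside that share.

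Transcription factors led the 12 largest rises. Lef1 (chr3:131110471-131224356, plus strand, GRCm38), the nuclear partner of beta-catenin, went from 0.998 CPM at d0 to 84.9 in EB, 74.8 in EpiSC and 67.7 in Neural, a log2 fold change of 6.23 ± 0.26 (SE, 3 libraries at d1 and 1 at d0; adjusted p = 0.00599). Its 3 d1 values lay within a narrow band far above the single d0 value. The zinc finger factor Wt1 went from 0.998 to 52.5, 37.0 and 26.0 CPM (5.26 ± 0.60, adjusted p = 0.0112). Bcl11a, another zinc finger factor, went from 0.21 to 19.3, 9.88 and 6.65 CPM (5.78 ± 1.05, adjusted p = 0.0249), with the EB library the highest for both. Zic2, a zinc finger factor of the epiblast, went from 2.42 to 29.6, 35.6 and 48.2 CPM (3.96 ± 0.39, adjusted p = 0.00926), with the order of the courses turned round. Cyp26a1, the enzyme that degrades retinoic acid, the potassium channel gene Kcnj3 and Samd9l completed the single-copy genes, with log2 fold changes of 4.31, 3.81 and 3.65. The other 5 rises were homeobox genes of multicopy clusters, Duxbl1, Duxbl2, Duxbl3, Cphx2 and Cphx3, at 3.65 to 3.79. Their copies are nearly identical, so how reads were split between them is uncertain and each cluster is best read as 1 signal. Bcl11a, Kcnj3, Cphx2 and Cphx3 were not called when the EpiSC library was left out, and Cphx2 and Cphx3 were not called without the Neural library either.

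The 12 largest falls were of different kinds. Fos (chr12:85473890-85477273, plus strand), an AP-1 subunit that serum induces within minutes, went from 16.3 CPM (311 reads) at d0 to 0.729, 0.751 and 1.04 CPM in EB, EpiSC and Neural (-4.27 ± 0.27, adjusted p = 0.00599). Its binding relative Jdp2 went from 10.7 to 0.547, 0.693 and 1.04 CPM (-3.79 ± 0.34). Socs3, the feedback inhibitor of LIF signalling, is described below. Ahnak2, which encodes a giant scaffold protein, went from 299.7 to 38.1, 15.4 and 23.5 CPM (-3.55 ± 0.40), and the small heat-shock protein gene Hspb8 from 53 to 5.53, 4.22 and 6.37 CPM (-3.30 ± 0.21). The citrate transporter gene Slc13a5 went from 33.9 to 2.85, 3.64 and 4.29 CPM (-3.23 ± 0.22). Ly6g6e had the lowest fitted value (-5.27 ± 0.66) but was uneven, from 9.25 CPM to 0.547 in EB, 0.116 in EpiSC and 0.0549 in Neural, where it rested on a single read, and was not called without the EpiSC library. Its pooled ratio of d0 to d1 had a counting interval of 22.4 to 79.0 (95%, exact). Zc3h6, Mst1, Lrrc31, Lrrc34 and Nkx6-3 completed the set at -3.91 to -3.22. The d0 library stood above all 3 d1 libraries in each of these genes, which the rule that picked them required.

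**Figure D1:**
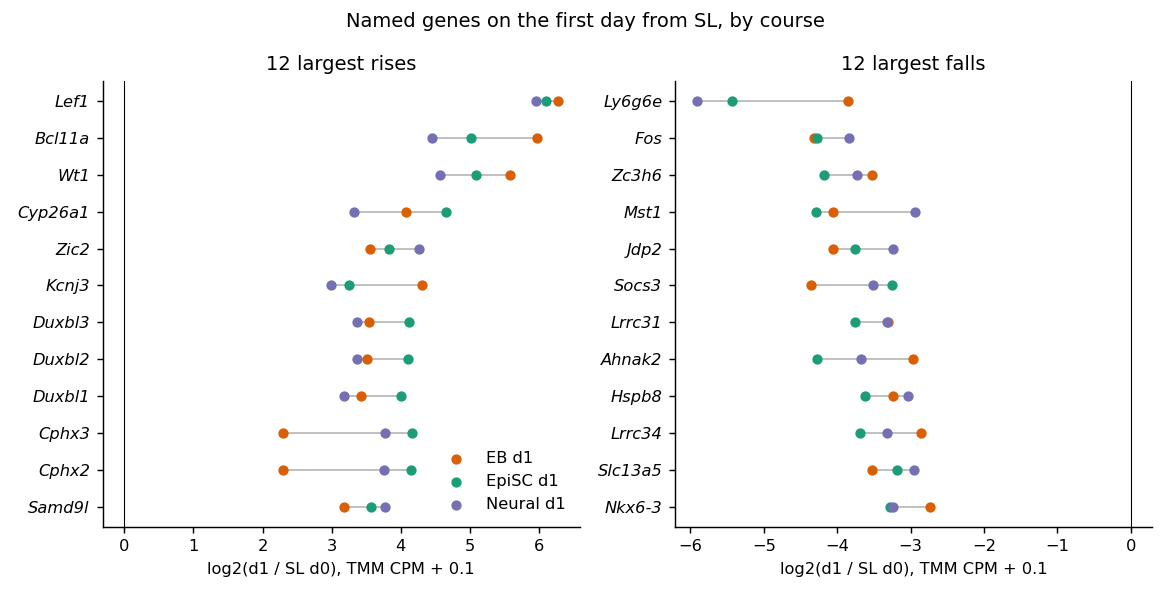
The 12 genes with the largest called rises (left) and falls (right) are shown by course; each point is the log2 ratio of 1 d1 library to the single SL d0 library, in TMM CPM with 0.1 added, and a grey line joins the 3 courses. All points lie on 1 side of 0 because the genes were picked that way. Lef1 has the largest rise in each course, and Cphx2, Cphx3 and Ly6g6e have the widest spread between courses.

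Of 17 tested LIF and Stat3 target genes, 10 were called lower and 1 higher, and 13 were lower in all 3 courses, with a median log2 fold change of -1.56 against -0.0035 over all genes tested. Socs3 (chr11:117966079-117970047, minus strand) went from 124 CPM at d0 (2361 reads) to 5.95 in EB, 12.9 in EpiSC and 10.8 in Neural, a fall of 12.5-fold in the mean (-3.64 ± 0.34, adjusted p = 0.00926). The NF-kappaB cofactor gene Bcl3 went from 18.7 to 2.92, 1.96 and 1.98 CPM (-3.03 ± 0.27), and Stat3 itself from 78.7 to 25.7, 27.6 and 26.9 CPM (-1.56 ± 0.11). Osmr, the receptor subunit for oncostatin M, was called too, but on 15 reads at d0 and 3 over the 3 d1 libraries (ratio with an exact 95% counting interval of 3.86 to 73.6). Klf4, Klf5, Tfcp2l1, Icam1, Pim3 and Sbno2 were the other falls, at -2.44 to -0.66. The receptor genes did not follow: Lifr was at 181 CPM at d0 and 144 to 191 at d1, and Il6st at 90.0 and 85.6 to 98.9, neither of them called. Myc, which LIF is known to sustain, rose, from 8.04 to 32.4, 37.8 and 22.5 CPM (1.94 ± 0.34, adjusted p = 0.0227). Of the 10 falls, 10 were called without the EB library, 8 without EpiSC and 8 without Neural; Osmr and Sbno2 were the calls lost. The rise of Myc was lost without EpiSC.

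The promoters of this group were read for the palindrome that STAT proteins bind, written TTCCNGGAA, on both strands of a window from 250 bases before to 50 after each RefSeq start site (GRCm38.p6). It was found in 4 of the 16 list genes with a window (Cish, Gfap, Icam1 and Sbno2) and in 1.15% of all 32851 windows. The looser form TTCNNNGAA, which contains the first, added Socs3 and was in 8.3% of all windows. The 250 bases before the start are shown for Socs3, the deepest fall of the list, and for Icam1, the largest called fall with the strict form, with the matching letters in capitals; a match is a string of letters, not a bound site.
Socs3 (chr11:117969367-117969616, minus strand): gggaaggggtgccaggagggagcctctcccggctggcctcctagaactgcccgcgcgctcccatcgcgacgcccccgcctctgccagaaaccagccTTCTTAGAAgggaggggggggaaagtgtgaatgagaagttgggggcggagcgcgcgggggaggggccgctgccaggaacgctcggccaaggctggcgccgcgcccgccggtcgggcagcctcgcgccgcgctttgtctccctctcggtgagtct
Icam1 (chr9:21015690-21015939, plus strand): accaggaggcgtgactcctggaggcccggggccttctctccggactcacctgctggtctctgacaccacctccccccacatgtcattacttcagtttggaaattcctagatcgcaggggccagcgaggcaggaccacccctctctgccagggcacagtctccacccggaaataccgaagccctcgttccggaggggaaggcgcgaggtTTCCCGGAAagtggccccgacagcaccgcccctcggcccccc

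Most naive pluripotency factors fell. Of 16 naive factors 10 were called lower, with a median of -1.03. Nanog went from 605 CPM to 139, 189 and 178 CPM in EB, EpiSC and Neural (-1.84 ± 0.17, adjusted p = 0.00836), Tfcp2l1 from 596 to 153, 168 and 179 CPM (-1.84 ± 0.11), and Esrrb, the orphan nuclear receptor, from 537 to 180, 171 and 191 CPM (-1.57 ± 0.10). Klf4 fell the most, from 86.0 to 13.9, 14.6 and 19.2 CPM (-2.44 ± 0.19). Prdm14 went from 12.7 to 4.92, 6.12 and 7.20 CPM (-1.06 ± 0.25), Klf2 from 36.6 to 19.4, 22.1 and 24.0 (-0.75 ± 0.16), and Zfp42 (Rex1) from 367 to 229, 218 and 252 (-0.66 ± 0.11), so these 3 lost less than Nanog on the log2 scale. Tbx3, Klf5 and Tcl1 were the other calls. Fbxo15 was uneven, at 145 CPM at d0 and 43.9, 110 and 147 at d1. Dppa3 was at 0.788 CPM at d0 and thus had little to lose. All 10 calls held without EB, 5 without EpiSC and 7 without Neural: Nanog, Tfcp2l1, Esrrb, Klf4 and Klf5 were called in all 3 of these fits. With the spread of all SL libraries 5 naive factors were called lower. With that of all 45 libraries 3 were, and Esrrb was not among them. Each of these spreads called 2 of 12 factors of general pluripotency higher, and the full fit called 5. These were the RNA-binding protein gene Lin28a (from 223 to 365, 386 and 397 CPM; 0.78 ± 0.11), Zfp281, Gdf3, Trim28 and Sall4, at 0.53 to 0.88. Their calls were lost without EpiSC, and without Neural only Lin28a and Zfp281 held. Pou5f1 (-0.14 ± 0.10, adjusted p = 0.342) and Sox2, at 249 CPM at d0 and 210, 152 and 167 at d1 (-0.50 ± 0.19, adjusted p = 0.111), were not called.

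Most genes of the formative epiblast rose. Of 22 genes 14 were called higher and 2 lower, and the median log2 fold change was 2.21, the highest of the 30 lists. Beside Lef1 and Zic2, Zic5 went from 9.19 to 54.6, 61.1 and 68.7 CPM (2.74 ± 0.19, adjusted p = 0.00621), Sall2 from 1.84 to 23.7, 20.5 and 20.0 (3.53 ± 0.24), and the forkhead gene Foxp1 from 39.2 to 115, 169 and 156 (1.90 ± 0.25). The de novo DNA methyltransferase gene Dnmt3a went from 54.5 to 265, 404 and 337 CPM (2.62 ± 0.28), and Cdh2 (N-cadherin) from 2.36 to 13.5, 9.48 and 8.63 (2.15 ± 0.37). Pou3f1 (Oct6), Fgf15, Sox3, Pim2, Sfrp2, Sox4 and Lin28b were the other rises. Some of the best known members were higher in all 3 courses but uneven, and were not called. Fgf5 was at 0.21 CPM (4 reads) at d0 and 11.8 in EB, 7.80 in EpiSC and 1.98 in Neural (5.05 ± 1.47, adjusted p = 0.0681), Otx2 at 9.09 and 60.6, 28.4 and 28.1 CPM (2.10 ± 0.57, adjusted p = 0.0572), and Dnmt3b at 203 and 1004, 460 and 408 CPM (1.62 ± 0.58, adjusted p = 0.107). The EB library was the highest in each of these 3 genes. Rbpj, the DNA-binding partner of Notch, and Etv4 were the calls in the other direction (-0.51 ± 0.10 and -0.38 ± 0.10). All 16 calls held without EB; of the 14 rises 7 held without EpiSC (Lef1, Zic2, Zic5, Sall2, Foxp1, Dnmt3a and Sox4) and 13 without Neural, and neither fall held in either of those fits.

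Of 12 tested targets of Wnt signalling, 5 were called higher (Lef1, Axin2, Dkk1, Notum and Sp8) and 1 lower (Cdx1). Axin2, the scaffold and feedback inhibitor, went from 15.1 to 34.1, 30.3 and 27.3 CPM (1.02 ± 0.18, adjusted p = 0.0221), Notum, the enzyme that inactivates Wnt ligands, from 2.42 to 10.5, 11.7 and 9.18 (2.11 ± 0.27), and the secreted antagonist gene Dkk1 from 3.05 to 21.9, 17.1 and 8.96 (2.39 ± 0.59, adjusted p = 0.0475). Cdx1 went from 3.84 to 0.729, 1.39 and 0.824 CPM (-1.96 ± 0.41). Of the list 4 genes were lower in all 3 courses and 7 higher, where 78.0% of all tested genes kept 1 direction in all 3. Without EpiSC only Lef1 was called, and without Neural Lef1, Axin2, Dkk1 and Notum; with the spread of all SL or of all 45 libraries 1 rise was called. The mesendoderm genes of the primitive streak gave no call among 9 tested with edgeR (3 at an unadjusted p below 0.05; DESeq2 called 1), and 7 more of the list's 16 genes were too low to test. In the Nodal pathway, of 16 genes, Gdf3 was called higher and the receptor gene Acvr1b lower, neither of them without EpiSC. DESeq2 called 5 higher, the spread of all SL libraries 4, and the fit without EB 10. The Nodal inhibitors Lefty1 and Lefty2 were at 1.05 and 1.47 CPM at d0. They reached 28.7 and 36.1 CPM in EB, 74.8 and 31.9 in EpiSC, which contains Activin, and 11.3 and 3.68 in Neural (adjusted p = 0.065 and 0.121). Of 20 Fgf and ERK feedback genes, Etv1, Dusp4 and Ccnd1 were called higher (1.67, 1.39 and 0.89) and Etv4 lower. Dusp4, which encodes an ERK phosphatase, Ccnd1 and Etv4 were not called without EpiSC. With the spread of all SL or of all 45 libraries no gene of this list was called, Etv1 included.

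**Figure D2:**
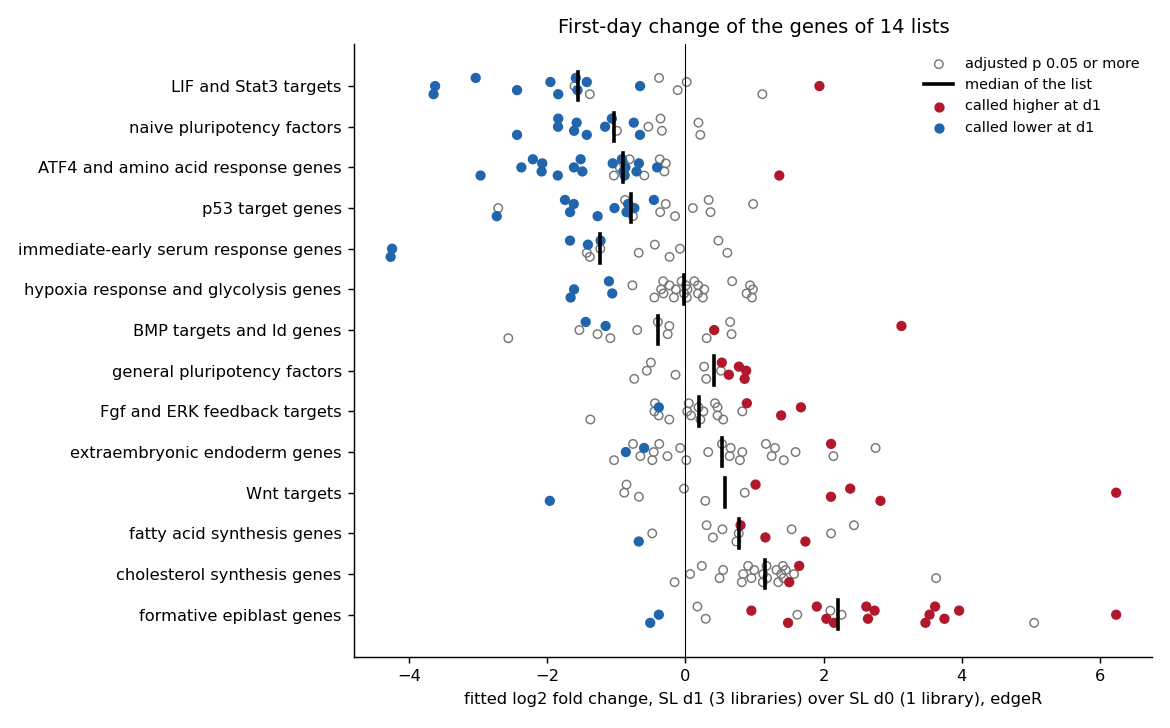
Each point is 1 tested gene of a list, at its fitted log2 fold change (edgeR, SL d1 over SL d0); filled red and blue points are genes called higher and lower, open points are not called, and black bars are list medians. The LIF and naive lists lie mostly to the left of 0 and the formative list to the right (medians -1.56, -1.03 and 2.21), and the cholesterol genes lie to the right with only 2 filled points.

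Of 14 tested immediate-early genes, the first to respond to serum, 5 were called lower at d1, with a median of -1.23. The median log2 ratio to d0 was -0.62 in EB, -1.19 in EpiSC and -1.56 in Neural, and in the test of serum EBs against serum-free cultures described below, 4 of 13 were higher in EBs and none lower, among them Junb and Nr4a1 (1.55 and 1.11, adjusted p = 0.00291 and 0.00485). Over all genes of that test 5.7% were higher in EBs and 5.22% lower, and this list was not recounted with a library left out. The 5 genes called lower than d0 were Fos, its relative Fosb, Btg2, Jun and Nr4a1. Fosb had 44 reads at d0 and 2 in each d1 library (-4.24 ± 0.49, ratio with a 95% counting interval of 8.50 to 57.5). The antiproliferative gene Btg2 went from 70.4 to 20.2, 23.1 and 23.2 CPM (-1.67 ± 0.13). Jun went from 8.67 to 3.34, 3.93 and 2.53 (-1.41 ± 0.30), and the nuclear receptor gene Nr4a1 from 29.5 to 17.2, 10.6 and 10.1 (-1.23 ± 0.31). Fos and Btg2 were not higher in EB than in the serum-free libraries. Egr1 stood at 11.1 CPM at d0 and 6.13, 2.66 and 3.68 at d1 (adjusted p = 0.0698), and Junb at 11.3 and 7.23, 3.52 and 2.36 (adjusted p = 0.135), so serum EBs were the highest of the d1 libraries in both. Ier2 and Klf6 were nearly level, at 30.9 and 80.0 CPM at d0 against 24.3 to 29.2 and 74.1 to 77.3. Without EB 10 genes of the list were called lower. Fos, Fosb and Btg2 were called without any 1 of the 3 libraries; Jun and Nr4a1 lost their calls without EpiSC and without Neural. All of these falls rest on the single d0 library. Among 18 cytoskeletal targets of SRF and YAP, 5 were called lower, among them Cyr61 (Ccn1; from 26.9 to 8.56, 11.0 and 10.4 CPM, -1.43 ± 0.19), Amotl2 and the actin cross-linker gene Actn1, and 2 higher, Ajuba and Thbs1. Their median was 0.15, near that of all genes. Of the 7 calls, 2 held without EpiSC, Cyr61 and Amotl2.

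The amino acid response was the list with the most falls. The factor Atf4 is translated when amino acids run short or the endoplasmic reticulum is stressed. Of its 26 tested targets 17 were called lower and 1 higher, and 25 were lower in all 3 courses (median -0.91). Over all genes, 5918 of the 14901 tested were lower in all 3 courses. Nupr1 went from 26.2 CPM at d0 to 1.21, 3.47 and 5.33 (-2.96 ± 0.58, adjusted p = 0.0289), the glutathione-degrading enzyme gene Chac1 from 24.7 to 2.61, 6.30 and 7.09 (-2.21 ± 0.46), and the pseudokinase gene Trib3 from 37.8 to 5.71, 10.6 and 10.6 (-2.07 ± 0.33). Ddit3 (Chop) went from 14.8 to 2.43, 2.89 and 3.24 CPM (-2.37 ± 0.24) and Ddit4, an inhibitor of mTORC1, from 30.9 to 6.56, 7.22 and 8.13 (-2.08 ± 0.17). The enzyme genes moved less: Asns (asparagine synthetase) went from 450 to 204, 248 and 263 CPM (-0.92 ± 0.15) and Gpt2 from 128 to 34.3, 32.8 and 40.1 (-1.85 ± 0.13). Slc7a3, a carrier of cationic amino acids, was the exception and rose from 82.1 to 241, 191 and 201 CPM (1.36 ± 0.17). The other falls included Cth, Slc1a4, Pycr1, Cebpb, Atf4 and Aldh18a1, at -1.61 to -0.87. The EB library was the lowest of the 3 for Nupr1, Chac1, Trib3 and Asns. With the spread of all SL libraries 9 genes of the list were called lower, and with that of all 45 libraries 7. Neither of these spreads called a gene of the list higher. All 18 calls held without EB. Of the 17 falls only Ddit3, Ddit4, Gpt2 and Cth held without EpiSC, and 11 held without Neural.

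The composite element known for this pathway, written TGATGNAA and searched on both strands, was found in the windows of 9 of the 24 genes of the list that have one, against 3.97% of all windows. The 9 were Asns, Chac1, Fgf21, Nupr1, Pycr1, Slc1a4, Slc7a11, Trib3 and Vldlr; 6 of these were called lower, Fgf21 was too low to test, and Slc7a11 and Vldlr were not called. The 250 bases before the start are shown for 4 called genes whose match lies there, again with the match in capitals. In Chac1 and Nupr1 it reads on the reverse strand, and it begins 193, 23, 110 and 103 bases before the start in the order given.
Chac1 (chr2:119350992-119351241, plus strand): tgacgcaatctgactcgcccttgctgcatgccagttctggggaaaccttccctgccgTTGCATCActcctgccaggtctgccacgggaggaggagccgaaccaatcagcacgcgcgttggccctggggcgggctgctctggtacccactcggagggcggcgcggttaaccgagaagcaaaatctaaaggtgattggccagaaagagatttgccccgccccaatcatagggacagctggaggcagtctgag
Asns (chr6:7693210-7693459, minus strand): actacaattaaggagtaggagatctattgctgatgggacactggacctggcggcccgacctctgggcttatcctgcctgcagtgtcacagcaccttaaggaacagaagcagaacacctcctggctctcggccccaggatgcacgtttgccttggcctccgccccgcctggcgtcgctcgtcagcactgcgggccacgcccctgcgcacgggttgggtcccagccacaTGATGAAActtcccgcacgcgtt
Nupr1 (chr7:126625471-126625720, minus strand): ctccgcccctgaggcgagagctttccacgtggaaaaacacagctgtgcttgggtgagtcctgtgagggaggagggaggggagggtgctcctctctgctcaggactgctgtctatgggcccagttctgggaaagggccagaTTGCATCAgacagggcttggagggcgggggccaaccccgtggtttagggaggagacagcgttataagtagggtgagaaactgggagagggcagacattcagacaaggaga
Pycr1 (chr11:120643749-120643998, minus strand): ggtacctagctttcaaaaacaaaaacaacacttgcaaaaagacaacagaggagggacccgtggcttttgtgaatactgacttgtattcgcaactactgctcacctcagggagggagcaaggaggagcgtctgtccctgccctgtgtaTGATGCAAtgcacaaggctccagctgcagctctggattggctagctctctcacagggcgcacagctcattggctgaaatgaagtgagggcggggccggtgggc

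Of 20 tested targets of p53, the factor that DNA damage activates, 10 were called lower (median -0.79). Cdkn1a (p21), the cell cycle inhibitor, went from 28.1 to 7.65, 9.94 and 9.89 CPM (-1.62 ± 0.19, adjusted p = 0.0105), the membrane protein gene Perp from 23.6 to 5.59, 6.70 and 8.85 (-1.74 ± 0.25), Gdf15 from 5.10 to 0.364, 0.751 and 1.15 (-2.73 ± 0.49), and Mdm2, the ligase that restrains p53, from 205 to 114, 127 and 128 (-0.74 ± 0.11). Bbc3 (Puma), Phlda3, Tnfrsf10b, Trp53inp1 and Ccng1 were the other falls beside Btg2. Bax and Aen, at 0.36 and 0.34, lay on the other side of 0 without a call. Of the 10 falls 3 held without EpiSC (Btg2, Cdkn1a and Trp53inp1) and 8 without Neural. Several genes belong to 2 lists, so the list counts are not independent. Among them are Sesn2, Btg2, Cdkn1a (p53 and G1), Klf4, Klf5 and Tfcp2l1 (LIF and naive), and Lef1 (formative and Wnt). Among 16 genes of the G1 machinery, the D-type cyclin gene Ccnd3 fell (from 203 to 89.7, 85.5 and 89.6 CPM, -1.20 ± 0.09) while Ccnd1 rose (from 30.7 to 59.2, 54.1 and 57.5, 0.89 ± 0.13). Ccne2, Cdk4 and Myc were called higher too, and the inhibitor gene Cdkn1c (p57) rose from 8.67 to 56.7, 82.2 and 39.5 CPM (2.77 ± 0.49). Only Ccnd3, Cdkn1a and Cdkn1c held without EpiSC.

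The level of lipid synthesis genes depended on the course. Of 24 genes of cholesterol synthesis and uptake, which SREBP2 drives when sterols are short, 21 were higher in all 3 courses (median 1.15), yet only 2 were called over d0, among them Sqle (1.5 ± 0.32), the 3 courses being far apart. The count depended on the spread used: 9 rose with DESeq2, 19 with the spread of all SL libraries, 16 with that of all 45 and 23 without the EB library, and none without EpiSC or without Neural. Hmgcs1, an early enzyme of the pathway, was at 191 CPM at d0, 254 in EB, 522 in EpiSC and 527 in Neural (adjusted p = 0.12). Insig1, the sterol-regulated brake on the pathway, was at 74.9, 111, 235 and 256 CPM (adjusted p = 0.103). In both of these the serum EBs lay above d0, but nearer to it than to the serum-free libraries. The 2 serum-free libraries were at about the same higher level. The median log2 ratio of the list to d0 was 0.36 in EB, 1.41 in EpiSC and 1.46 in Neural. Among fatty acid genes, Fasn and Scd2 were also highest in the serum-free libraries, but their EB values lay well above d0. Fasn, the fatty acid synthase, rose from 240 to 651, 913 and 844 CPM (1.74 ± 0.22, adjusted p = 0.013), Acaca and Acsl3 also rose, Me1 fell, and the desaturase gene Scd2 stood at 195 CPM at d0 against 497, 1368 and 1307 (2.44 ± 0.65, adjusted p = 0.0557). Of the 13 genes tested, the calls of Fasn alone held without EpiSC and without Neural.

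That difference between courses was tested over the 6 d1 libraries of both starting media, EB (n = 2, 1 from SL and 1 from 2iL) against EpiSC and Neural (n = 4), with a term for the starting medium. Of 14461 genes, 825 (5.7%) were higher in serum EBs and 755 (5.22%) lower. Of the 24 cholesterol genes 23 were lower in EBs, Ebp being the exception, and of the 13 fatty acid genes 9 were lower; for Hmgcs1 the difference was -0.88 (adjusted p = 0.000713) and for Insig1 -1.08 (adjusted p = 0.000187). Leaving out 1 of the 6 libraries at a time left 19 to 22 of the cholesterol genes and 6 to 10 of the fatty acid genes lower in EBs, and without a term for the medium 5 and 1 were called. Over all genes, 438 were called without the 2iL EB library, 831 without the SL Neural library and 28 without the term for the medium, against 1580 with all. Serum and suspension came together in the EBs and cannot be told apart. The Id genes, targets of BMP signalling that serum is known to feed, went the other way. Id1 was at 42.2 CPM at d0, 44.0 in EB, 5.14 in EpiSC and 3.68 in Neural (EB against the others 3.02, adjusted p = 4.91e-05), Id2 at 8.30, 14.9, 3.64 and 2.80 (2.04, adjusted p = 0.00059), and Id3 at 6.62, 18.0, 6.24 and 7.03 (1.09, adjusted p = 0.00276). Against d0 none of these 3 was called, and of 15 BMP-related genes Id4 and Smad6 were called lower and Msx1 and Bmpr1a higher; none of these 4 calls held without EpiSC or without Neural. Hypoxia and glycolysis genes were also higher in EBs, 12 of 27 (8 to 16 without 1 library, 1 without the term for the medium), among them Pgk1 (743 CPM at d0, then 730, 472 and 434; 0.89, adjusted p = 0.000799). Over d0, only Hk1, Vegfa, P4ha2 and the glucose transporter gene Slc2a3 of that list were called, all lower (-1.66 to -1.06), P4ha2 not without EpiSC. Of the largest single differences, the autotaxin gene Enpp2 stood at 1.05 CPM at d0 and 30.4, 1.91 and 2.09 at d1 (3.69). The retinoic acid-responsive gene Stra8 stood at 11.8 and 1.34, 52.1 and 86.3 (-5.84, adjusted p = 0.00217), and the glycerol channel gene Aqp3 at 19.8 and 2.55, 19.4 and 35.9 (-3.71). Coch, Esrp1 and Slc23a1 were the other leading genes higher in EBs (2.04 to 2.5), and Ano1, Cd37 and Rhobtb1 the others lower (-3.72 to -3.36).

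**Figure D3:**
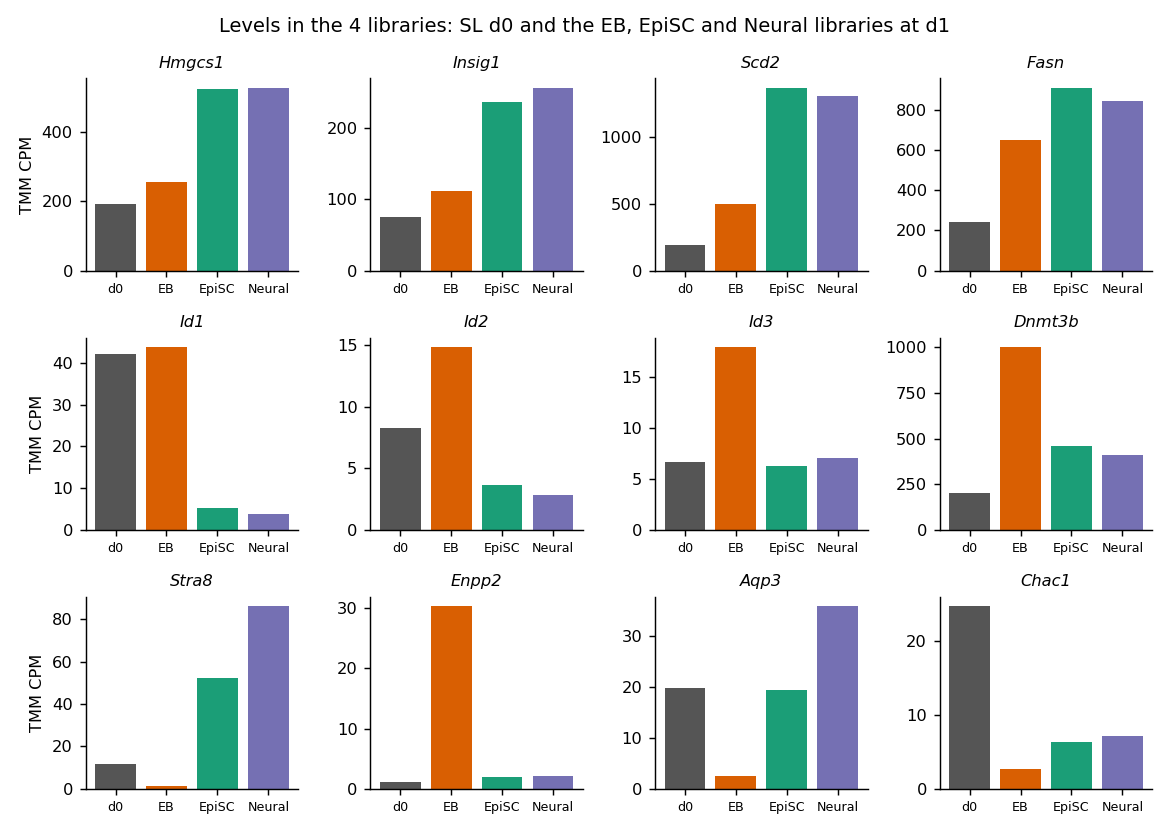
Bars give the TMM CPM of 12 genes in the single SL d0 library and in the EB, EpiSC and Neural libraries at d1, each axis starting at 0. Hmgcs1, Insig1 and Scd2 are higher in both serum-free libraries than in EB, Id1, Id2 and Enpp2 are higher in EB, and Chac1 is below d0 in all 3.

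Of 25 tested extraembryonic endoderm genes 1 was called higher and 2 lower, the latter Krt8 and Lamc1. The endocytic receptor genes Cubn and Lrp2 were far above d0 in EB but less so elsewhere: Cubn stood at 262 CPM at d0 and 1220.2, 623 and 536 at d1 (1.59 ± 0.52, adjusted p = 0.0868), and Lrp2 at 272 and 1931, 1002 and 670 (2.14 ± 0.64, adjusted p = 0.0725). The transcription factor genes Gata4 and Sox17 were nearly level, at 14.4 and 7.25 CPM at d0 and 11.0 to 18.8 and 6.19 to 8.09 at d1. The 28 genes summed to 5618 CPM in EB, 3284 in EpiSC and 3216 in Neural, so the sum exceeded d0 only in EB. That excess came from Cubn and Lrp2, whose summed gain in EB was larger than that of the whole list. Without Cubn and Lrp2 the list summed to less than at d0 in all 3 courses. The median log2 ratio of the list was above 0 in each course, at 0.39, 0.29 and 0.16, with 13 genes higher in all 3 courses and 7 lower. Over all tested genes 78.0% kept 1 direction in all 3 courses, so these counts do not set the list apart. Without EB 10 of the genes were called higher and 8 lower. Neither fall held without EpiSC or without Neural. Trophoblast markers summed to 47.6 CPM at d0 and 10.3 to 25.7 at d1, with Prl3d1 at 0 in all 4 libraries and Tpbpa at 0 in 3. Of 9 tested only Wnt7b was called, lower (from 11.4 to 1.52, 2.08 and 1.92 CPM). Such a sum is led by its most abundant members, Wnt7b alone giving 11.4 of the 47.6 CPM at d0. It does not measure the share of trophoblast cells. Fibroblast markers summed to 41.7 CPM at d0 and 25.2 to 29.3 at d1; Mmp2 and Pdgfrb of 11 were called lower, neither without EpiSC, and Lum, Postn, Dcn and S100a4 were at 0 at d0. Of 10 blood cell markers, Tyrobp and Hbb-bt were at 0 in all 4 libraries and 3 passed the filter, Laptm5 and Cd68 falling (from 138 to 41.2, 44.6 and 42.0 CPM for Laptm5) and Itgam rising; only Laptm5 was called without EpiSC. The neural progenitor list had 7 of 15 genes testable, with Sox3 (from 0.315 to 2.13, 4.62 and 5.05 CPM) and Hes3 higher and Ncam1 lower, none of them called without EpiSC.

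Of 12 tested genes of the two-cell-like state 3 were called higher and 11 were higher in all 3 courses, with a median of 1.01, and the list summed to 424 CPM at d0 and 773 to 1257 at d1. Zscan4c, Zscan4d and Zscan4f, which lie in 1 multicopy cluster, rose by 1.32 to 1.58 on the log2 scale, with Zscan4c at 138 CPM at d0 and 253, 412 and 370 at d1. Without EB 11 genes of this list were called higher, and without EpiSC or without Neural none. Of 18 germline genes only Sycp3 was called, lower (from 35.5 to 13.7, 16.6 and 14.8 CPM). Of 9 DNA methylation enzymes Dnmt3a and Uhrf1 rose, the latter by 0.43 ± 0.10 and not without EpiSC or Neural. Vim, Epcam and Cdh2 of 16 cadherin and epithelial-mesenchymal transition genes rose, at 0.71 to 2.15 and not without EpiSC, while Cdh1 (E-cadherin) was at 276 CPM at d0 and 294 to 325 at d1 without a call. Xist, the RNA that coats the inactive X in females, stood at 1.21 CPM (23 reads) at d0 and 4.62, 2.02 and 1.65 in EB, EpiSC and Neural (1.18 ± 0.71, adjusted p = 0.271). Its antisense partner Tsix stood at 3.73 and 6.32, 5.32 and 4.51 CPM (adjusted p = 0.254), so each was higher than d0 in all 3 courses by less than the test could tell from the spread. None of the 6 genes of the X inactivation centre was called with edgeR (0 at an unadjusted p below 0.05, and 0 with DESeq2). Of 20 replication-dependent histone genes Hist1h1b, Hist2h2ac and Hist1h1a were higher and Hist1h1c lower, of which only Hist1h1b held without EpiSC. Of 6 structural non-coding RNAs Malat1 was lower (-0.93 ± 0.15), and of 13 mitochondrial messengers mt-Co2 was (-0.58, adjusted p = 0.0497), not without Neural.

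The same day from 2iL, in which ESCs are also held by inhibitors of Gsk3 and of the ERK kinase Mek, set these changes in context. There 2302 of 14068 genes were higher (16.4%) and 2489 lower (17.7%) over 3 d0 and 3 d1 libraries, none shared with SL. Of the genes tested in both media, 574 rose in both, 46.0% of the SL rises and 25.4% of the 2iL rises, and 667 fell in both, 45.9% and 28.3%. Opposite calls were made for 121 genes. The main lists moved from 2iL as well. There 19 of 22 formative genes were called higher and 0 lower (median 2.51), and 13 of 16 naive factors lower and 1 higher (-1.98). Of the Atf4 targets 12 of 25 were lower and 2 higher (-0.58). Of the p53 targets 9 of 19 were lower and 1 higher (-0.49). The difference between the 2 first-day changes (the interaction) was called for 1651 of 15515 genes (10.6%), with the SL change above the 2iL change for 748 and below it for 903. Without the EB libraries at d1 2170 were called, without EpiSC 572 and without Neural 776.

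Of the LIF and Stat3 targets 5 differed between the media, 3 with the SL change above and 2 below. No difference was called for Socs3 or Klf4. Socs3 fell by 3.64 from SL and 3.83 from 2iL (interaction 0.20, adjusted p = 0.82), and Klf4 by 2.44 and 2.34 (adjusted p = 0.883). Of 16 naive factors, the SL change was called above the 2iL change for 4 and below it for 2. Prdm14 and Tfcp2l1, with a higher start in 2iL, fell further there (interaction 1.91, adjusted p = 0.0044, and 1.24, adjusted p = 0.0252). Zfp42 went the other way, with an interaction of -0.63. Of 20 ERK feedback genes 8 differed, all with the SL change below. Spry4, an inhibitor of receptor tyrosine kinases, was at 118 CPM at SL d0 and 127 to 216 at d1, but went from 1.94 to a mean of 97.1 CPM from 2iL (interaction -5.17, adjusted p = 0.000251), and for Dusp6 the interaction was -3.22. Of 12 Wnt targets 6 differed, all with the SL change above: Axin2 was called higher from SL and fell from 70.8 to 23.6 CPM from 2iL (interaction 2.60, adjusted p = 0.00244), and Dkk1 had 5.00. Fos fell only slightly from 2iL, from 1.11 to 0.700 CPM in the mean without a call (interaction -3.63, adjusted p = 0.0134), and Egr1 was at 0.214 CPM at d0 and 7.75 at d1 there (interaction -6.68, adjusted p = 0.0284). Fasn fell from 897 to 651 CPM from 2iL (interaction 2.21, adjusted p = 0.000407), and 7 of 13 fatty acid genes had the SL change above. The largest differences were of genes near 0 in 1 medium. Sp5, Spic, Nkx1-2, Mobp and Lrrc15 were at means of 16.5 to 35.5 CPM at 2iL d0 and at 0.0525 to 0.893 CPM at SL d0 (interactions 6.86 to 11.0), and 9330159F19Rik, Soga3, Atp1a4, Dnmt3l and Thbs1 were at 0.0218 to 6.96 CPM at 2iL d0 and at 12.3 to 553 at d1 (-7.17 to -5.42); a fitted value next to so few reads depends on the prior count of the fit. Dnmt3l, the cofactor of de novo methylation, was already at 284 CPM at SL d0, and at 334 to 487 at d1.

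**Figure D4:**
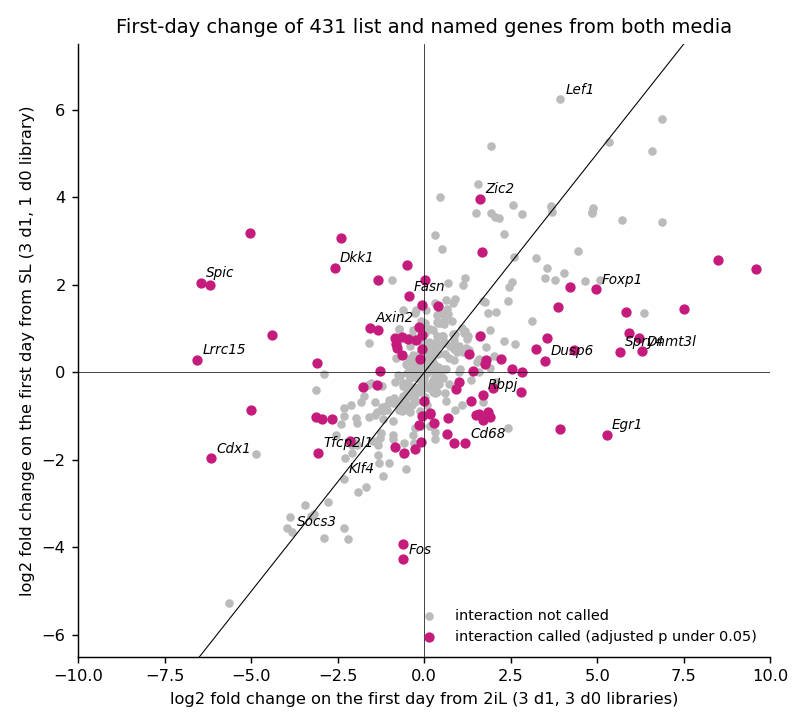
First-day log2 fold changes from 2iL (x axis) and from SL (y axis) of 431 list and named genes tested from both media; magenta points are the 91 genes whose interaction was called, and the diagonal marks equal change. Socs3 and Klf4 lie on the diagonal, Axin2, Dkk1 and Fasn lie above it with opposite signs, and Spry4, Dusp6 and Dnmt3l lie near 0 from SL alone.

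On later days of the same courses the leading changes took different paths. Socs3 stayed low, at 9.91 ± 3.58 CPM at d1 (SD, n = 3 courses), 4.95 ± 2.89 at d2 and 8.10 ± 3.72 at d3, against 124 at d0. Nanog went on falling, from 169 ± 26.3 at d1 to 56.5 ± 13.3 at d2, and at d3 the EpiSC library, at 151 CPM, lay above the other two (81.0 and 51.3). Fos stayed at 0.722 ± 0.177 at d2 and was at 2.62 ± 0.761 at d3. Trib3 was at 35.1 CPM in the d3 EpiSC library, close to the 37.8 of d0, and at 12.7 and 10.3 in EB and Neural. Lef1 was highest at d1.5 (128 ± 32.2), Dnmt3a too (401 ± 79.1), and Foxp1 had come down by d3 to 60.4 ± 15.3 from 147 ± 28.1 at d1. Cubn in EB was at 910.3 CPM at d3, and in Neural at 1372. No test was run on these later values.

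**Figure D5:**
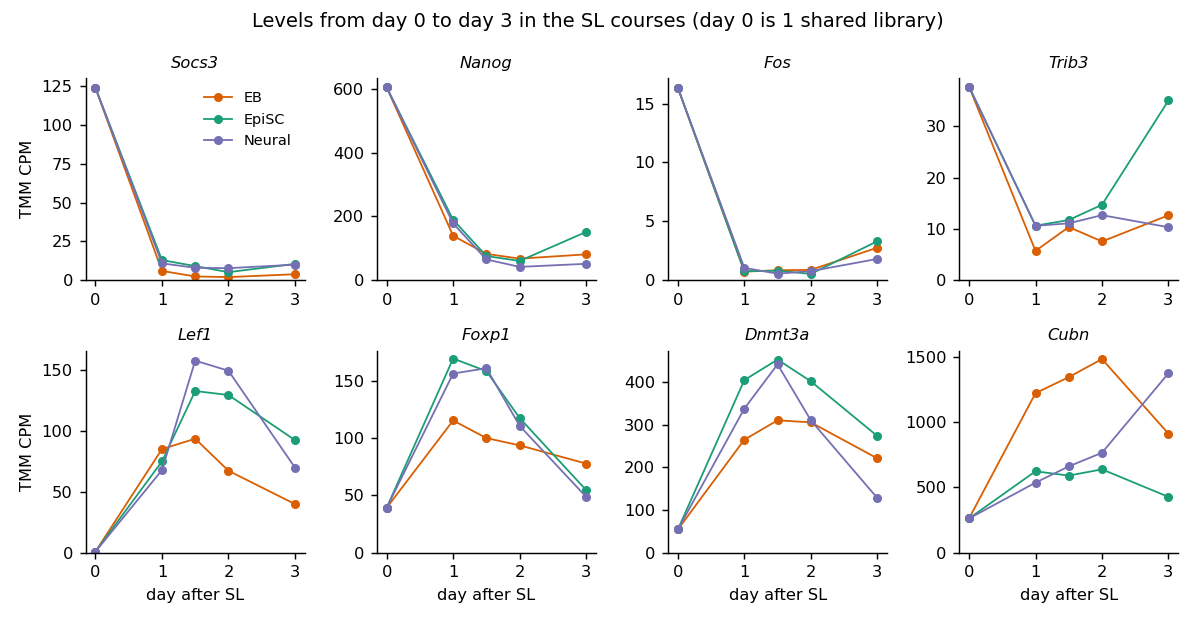
TMM CPM of 8 genes on days 0, 1, 1.5, 2 and 3 of the EB, EpiSC and Neural courses from SL, with 1 line per course and 1 shared library at day 0. Socs3 and Fos are low from d1 on, Lef1 and Dnmt3a are highest at d1.5 on average, and Trib3 and Cubn part by course at d3.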

How the data were processed

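Total RNA depleted of ribosomal RNA was sequenced in 45 libraries of E14tg2a cells, of which the 4 described here belong to the first day from SL. Per the labels and the methods of the study, the authors trimmed reads with TrimGalore, aligned them to GRCm38/mm10 with TopHat2 guided by Ensembl gene models, and used featureCounts for stranded counting over genes; the submitters' processing notes also name DESeq2. The deposited values are raw counts for 35372 genes, of which 34599 were named from the GENCODE annotation of GRCm38. Reads that fit near-identical copies can be lost or split by such counting.

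Counts were filtered with filterByExpr, scaled by TMM and tested with edgeR 4.0.16 in R 4.3.3 (quasi-likelihood, robust), SL d1 (n = 3 courses) against SL d0 (n = 1), at an adjusted p of 0.05. SE is the log2 fold change divided by the root of F. An exact permutation test of 3 against 1 could not go below p = 0.25. The interaction with 2iL used 10 libraries and the serum comparison 6. Counting intervals cover counting error only. Nothing in the labels says that libraries came from separate cultures, so p-values measure the spread between these samples, which may be partly technical.

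Named genes were the 12 largest called rises and falls with the same direction in the 3 courses and at least 5 CPM (in all d1 libraries for rises, at d0 for falls), up to 5 called members per list of 30 lists, members split between courses, a fixed set of pluripotency, LIF, Id and X-linked genes, and 5 genes per direction for the other tests; further list members are named for illustration. The choice of libraries and the lists were made with earlier results of these data known. On simulated counts for 14580 genes the first-day test recovered 45.5% of 2-fold, 95.4% of 4-fold and 98.4% of 8-fold changes. The simulation gave an altered gene the same change in every d1 library, with independent spread set by the trend over genes. The real d1 libraries were 3 unlike courses, so these shares do not measure the recovery in these data. DESeq2 1.42.0, other scalings, no filter, other sources of spread and leaving out each d1 library were alternatives. Promoter windows are those of RefSeq (27025 gene symbols); 9 motifs were searched, each in 1 list, and those not described were an SREBP motif in 2 lengths, TCACNCCAC and TCACNCCA (1 and 3 of 16 cholesterol genes; 1.24% and 4.36% of windows), the CArG box (3 of 13 immediate-early genes; 1.63%), GGGCATGTC for p53 (0 of 14; 0.18%), ACGTG for hypoxia (18 of 25; 19.62%) and CTTTGA for TCF (4 of 9 Wnt targets; 16.0%). Some list genes are not reported here by name, though they stay in the counts.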

Additional observations from a re-analysis of the deposited data

Results flagged for a closer look

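The first-day change from SL differed from that from 2iL, by the interaction test of edgeR at an adjusted p below 0.05, for 1651 genes, 748 with the SL change above and 903 with it below. Those named in the results are given here as the SL change minus the 2iL change on the log2 scale; a positive value means a larger rise or a smaller fall from SL. The SL change has 1 library at d0 behind it and the 2iL change 3.

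Among pluripotency and formative genes, the difference was 3.34 for Dppa3, 2.37 for Zic2, 1.91 for Prdm14, 1.24 for Tfcp2l1, 1.09 for Zic5, 0.94 for Gdf3, 0.62 for Sall4, -0.63 for Zfp42, -1.28 for Etv4, -2.18 for Rbpj, -2.37 for Sox4, -2.75 for Lin28a and -3.05 for Foxp1. Among LIF, Myc and cell cycle genes, the difference was 1.32 for Il6st, 0.61 for Stat3, -1.03 for Ccnd3, -1.47 for Pim3 and -2.26 for Myc. Among Wnt and BMP genes, the difference was 5.00 for Dkk1, 4.22 for Cdx1, 2.60 for Axin2, 2.09 for Notum and -1.41 for Smad6. Among ERK feedback and serum response genes, the difference was -0.78 for Ajuba, -0.91 for Amotl2, -2.05 for Jun, -3.22 for Dusp6, -3.63 for Fos, -4.42 for Dusp4, -4.70 for Fosb, -5.17 for Spry4, -5.42 for Thbs1 and -6.68 for Egr1. Among metabolic and stress genes, the difference was 2.96 for Scd2, 2.21 for Fasn, 1.47 for Acsl3, 1.36 for Ebp, 1.12 for Sqle, -1.26 for Gpt2, -1.45 for Perp and -1.71 for Cth. Among marker genes of other cells, the difference was 1.61 for Pdgfrb, 1.25 for Vim, -0.83 for Laptm5, -2.44 for Mmp2 and -2.77 for Cd68. Among the remaining genes, the difference was 11.0 for Sp5, 8.53 for Spic, 8.24 for Nkx1-2, 8.18 for Mobp, 6.86 for Lrrc15, -1.08 for Malat1, -3.29 for Zc3h6, -5.78 for Dnmt3l, -5.87 for Atp1a4, -6.05 for Soga3 and -7.17 for 9330159F19Rik.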

How the results depend on the processing

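Leaving out 1 d1 library was the choice that moved the counts of calls: between 115 and 3588 genes were higher at d1 and between 195 and 3754 lower, lowest without EpiSC and highest without EB. All 1275 rises and 1561 of the 1563 falls were called again without EB, 115 and 195 without EpiSC, and 447 and 561 without Neural. With fewer libraries the fit also has fewer degrees of freedom. DESeq2 called 1489 higher and 1293 lower, library totals in place of TMM 1021 and 1832, and the remaining alternatives 1208 to 1614 and 1187 to 1817. The interaction with 2iL was called for 572 to 2170 genes when a course was left out at d1, and for 2613 with a replicate block for the course. The labels pair the libraries of a course only by their protocol, and the single SL d0 library has no course, so the block set it at the average. The serum comparison gave 28 genes without a term for the starting medium, and 438 to 1418 when 1 of its 6 libraries was left out, an alternative chosen after seeing the data; without an EB library the remaining one was assumed to vary like the others. Among named genes, Aqp3 was at -0.04 with all libraries and 0.48 without EB, where it was called, and -0.85 without Neural. Of 148 named genes, 3 lost their call with DESeq2, 11 with library totals, 45 with the spread of all SL libraries, 54 with the spread of all 45, 69 without EpiSC and 41 without Neural. The single d0 library and the 3 unlike courses limit the precision, and so does the depth for genes near 0, at which 3 reads are below 0.18 CPM.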

Other observations

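Within d1, genes of the formative epiblast were uneven between the courses. In the test of serum EBs against both serum-free cultures over the 6 d1 libraries, 7 of 22 were higher in EBs and 1 lower. Over all genes of that test 5.7% were higher in EBs and 5.22% lower. The count for this list was not repeated with a library left out. The epithelial factor gene Grhl2 stood at 14.4 CPM at SL d0 and 121, 53.4 and 33.0 in EB, EpiSC and Neural (EB against the others 1.83, edgeR adjusted p = 0.0153), the forkhead gene Foxd3 at 20.9 and 38.4, 20.0 and 18.6 (1.10, adjusted p = 0.000367), and Pou3f1 at 3.42 and 59.2, 30.6 and 24.6 (1.53, adjusted p = 0.00417). Dnmt3b, Otx2, Sox4 and Cdh2 were the others, at 0.53 to 1.40, and Foxp1 was the gene lower in EBs (-0.40, adjusted p = 0.0158).

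Genes of the Atf4 response were lower in EBs as well, 10 of 26 (4 to 10 without 1 of the 6 libraries, and 0 without the term for the starting medium), with Nupr1 at -1.76, Chac1 at -1.61 and Slc1a4 at -1.14, while Slc7a3 was higher (0.32). Of 18 germline genes 5 were lower in EBs and 1 higher, a count not repeated with a library left out. Of the 3 d1 libraries the Neural one held the most Plac1, a placental gene, with 38 reads against 3 in EB, 7 in EpiSC and 1 at d0, and Tfap2c went from 561 reads at d0 to 35, 123 and 272.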
